A study of Mus musculus with 42 samples.

Results

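Libraries made with the SMART-Seq v4 kit from 0.25 ng of RNA (SMARTseq0.25) were compared with libraries made with the same kit from 4 ng (SMARTseq4). They are 12 of the 42 libraries of the series and were chosen by the protocol and fraction in their labels. There were 3 SMARTseq0.25 and 3 SMARTseq4 libraries of the whole liver homogenate (input), and 3 and 3 of the RNA that was pulled down with tagged ribosomes (IP). All came from 3 untreated mice of the genotype Gfi1Cre/+;Rpl22HA/HA, so every library, input included, carries both alleles. In these mice Gfi1-Cre switches on an HA-tagged form of the ribosomal protein Rpl22, and only cells with Cre activity, now or in their ancestors, give tagged ribosomes. The age of the mice is 1 day in one label and 30 days in the other labels and in the methods of the study. Libraries with the same replicate number were aliquots of the same RNA of the same mouse, so the comparison asks how the reads counted per gene differ between a small and a larger amount of one RNA. The same number of amplification cycles was used for both amounts, according to the methods. Libraries made with the TruSeq kit from 70 ng of the same RNA (TruSeq70, 3 input and 3 IP) were used only to sort genes into classes of abundance and origin, and they come from another kit and another sequencing centre.

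SMART-Seq v4 primes reverse transcription at the poly(A) tail, adds a common sequence at the far end of the cDNA by template switching and then amplifies full-length cDNA by PCR. A transcript that is not converted to cDNA at the first step is absent from the library however deeply it is sequenced, so that loss of a transcript (dropout) and the spread between replicates are the usual measures of how such a kit performs with little RNA. In liver the input is dominated by hepatocyte mRNA, and the IP of Gfi1-Cre mice holds mRNA of blood-derived cells, Kupffer cells (the resident macrophages of the liver) and lymphocytes among them.

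The smaller amount gave fewer detected genes in both fractions, and the loss fell on genes of low abundance. Genes that TruSeq70 measured above 30 CPM (reads of the gene per 1000000 counted) were almost never lost. The mean level of each class of genes was alike, although the median was lower at 0.25 ng in classes of low abundance. No gene passed the edgeR test between the amounts (350 genes in input and 249 in IP had an unadjusted p under 0.05, and DESeq2 called 3 and 6). The spread over mice differed, and for genes at 1 to 3 CPM it was 2.02 times as large at 0.25 ng as at 4 ng in input and 2.20 times in IP. Markers of hepatocytes, Kupffer cells and endothelial cells had reads in every library of both amounts. T and NK cell markers are rare in input. There they were at 0 reads about as often as genes of their abundance at 0.25 ng (33.3% and 35.4%) and less often at 4 ng (4.44% and 11.9%).

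The counts summed to between 22951893 and 24347672 reads in the SMARTseq0.25 input, 23573272 and 30217161 in the SMARTseq4 input, 13971566 and 15047219 in the SMARTseq0.25 IP and 14407184 and 19577709 in the SMARTseq4 IP. A level that rests on 3 reads, which is the most that a count of 0 allows, was 0.0993 to 0.215 CPM depending on the library. This floor covers counting error only, since PCR copies are not independent molecules. The IP libraries of mouse 1 stood apart at both amounts, with 31.4% and 31.0% of reads on their 10 most counted genes where the other IP libraries had 19.4% to 22%. Some results on IP are also given without that mouse, and others moved without it too. Without mouse 1 edgeR had 571 of 15021 genes at an unadjusted p under 0.05 between the amounts in IP, against 249 of 14655 with it. Reads of the same mouse still differed between amounts by more than counting noise, with a mean chi-square of 17.4 per gene in both fractions, where counting noise alone gives a value near 1, and by less than the reads of different mice did (87.9 to 93.6 in input and 146 to 149.7 in IP).

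In input, at least 1 read was counted for 16834, 16742 and 16117 genes at 0.25 ng in mice 1, 2 and 3, and for 19111, 19287 and 19630 genes at 4 ng. In IP the numbers were 16827, 16870 and 16527 at 0.25 ng and 19835, 20551 and 20488 at 4 ng. In both fractions all 3 SMARTseq0.25 libraries lay below all 3 SMARTseq4 libraries. The mean difference was -2778 ± 650.2 genes (SD over 3 mice) in input, which is -14.4%, and -3550 ± 490 genes in IP, which is -17.5%. Without mouse 1 the difference in IP was -3821 genes. The 2-sided exact permutation test of 3 against 3 libraries gave p = 0.1 in each fraction, which is the smallest value that this design allows, and the paired exact test gave p = 0.25, also its smallest.

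**Figure D1:**
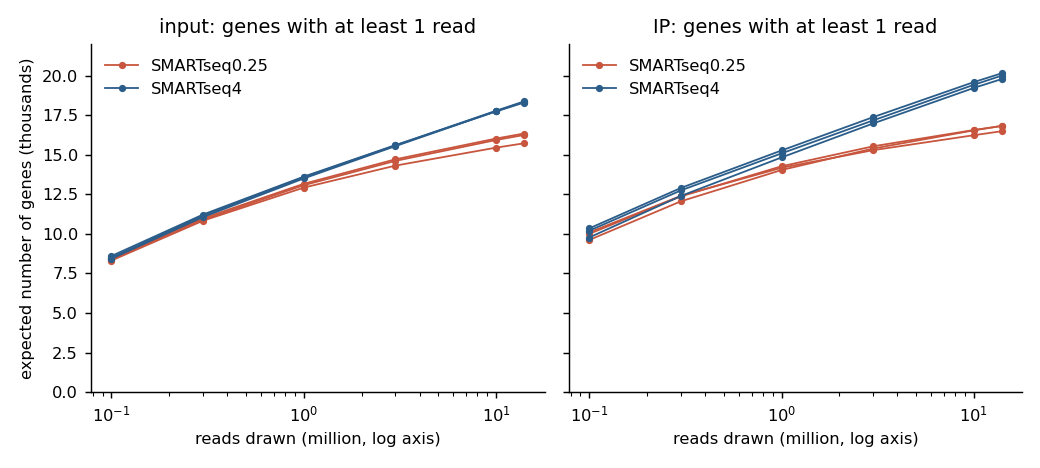
Genes expected to have a read (in units of 1000) against the number of reads drawn without replacement (in units of 1000000, log axis), 1 line per library, for input on the left and IP on the right. The lines of the 2 amounts are close at 100000 reads and move apart with depth, up to 16104 against 18336 genes in input and 16710 against 19979 in IP at 13971566 reads.

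Depth differed between the amounts, so the number of genes was also computed after every library was drawn down to 13971566 reads, the smallest total of the 12. At this equal depth the SMARTseq0.25 input held 16104 ± 334 genes and the SMARTseq4 input 18336 ± 36.0 (SD, n = 3), a difference of -12.2%. In IP the values were 16710 ± 192 and 19979 ± 184, a difference of -16.4%. The gap grew with depth, as the plot of genes by reads drawn shows. In input the SMARTseq0.25 libraries had 1.58% fewer genes at 100000 reads, 3.77% at 1000000 and 11.0% at 10000000, and in IP 2.02%, 5.99% and 15.3%. Sharing among the mice was nearly alike. Of the genes with a read in any of the 3 libraries, 71.8% had reads in all 3 at 0.25 ng and 75.1% at 4 ng in input, and 71.4% and 74.6% in IP.

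The size of the loss depended on how a gene was called detected. With at least 5 reads the difference was -6.63% in input and -8.97% in IP, and with at least 10 reads -3.71% and -5.36%. With a CPM of at least 1, 12423 ± 42.7 and 12538 ± 86.0 genes were found in input, a difference of -0.917% with overlapping groups (exact permutation test, 2-sided, p = 0.2), and 13652 ± 154 and 13907 ± 213 in IP (-1.83%, p = 0.3 by the same test). Genes with exactly 1 read numbered 857 ± 61.6 at 0.25 ng and 1519 ± 58.7 at 4 ng in input, and 780.3 ± 58.2 and 1584 ± 29.9 in IP. The tail of genes with a single read was thus longer at 4 ng. In the deposited RPKM values, which come from another count of the same alignments, 8.79% fewer genes were above 0 at 0.25 ng in input and 12.1% fewer in IP.

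The difference was smaller for protein-coding genes than for long non-coding RNA genes. In input 12811 ± 203 protein-coding genes had a read at 0.25 ng and 14283 ± 124 at 4 ng, a difference of -10.3%, and in IP 13138 ± 171 and 14720 ± 141 (-10.7%). Long non-coding RNA genes with a read numbered 1101 ± 83.9 at 0.25 ng and 1739 ± 44.5 at 4 ng in input (-36.7%), and 1030.3 ± 55.5 and 1933 ± 72.4 in IP (-46.7%). For pseudogenes the difference was -9.33% in input and -15.2% in IP. For genes of the class TEC (unspliced models still to be tested experimentally) the difference was -53.5% in input and -58.1% in IP. In each of these classes and in both fractions the groups did not overlap, with p = 0.1 in the exact permutation test. The kinds of gene differ in abundance, and their difference at matched abundance was not tested.

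In input 3878 genes had reads only at 4 ng and 1097 only at 0.25 ng. Most were at the limit of detection. The highest count in any library was a single read for 1491 of the former and 603 of the latter, and 4 of the 3878 had a mean of at least 1 CPM. In IP 4650 genes had reads only at 4 ng, 30 of them with a mean of at least 1 CPM, and 970 only at 0.25 ng. A stricter count takes genes with reads in all 3 libraries of one amount and in none of the other. In input 535 genes, 1.12% of the 47729 genes counted, had reads in all 3 SMARTseq4 libraries and 0 reads in all 3 SMARTseq0.25 libraries, and 15 genes (0.0314%) showed the reverse. In IP the numbers were 732 (1.53%) and 7 (0.0147%). Of the genes lost at 0.25 ng, 304 of 535 in input and 349 of 732 in IP were protein-coding.

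Among the genes lost from all 3 SMARTseq0.25 input libraries, those with the highest TruSeq70 level are named here. Rpusd2, which encodes a protein with a pseudouridine synthase domain (GRCm38 chromosome 2, 119034790 to 119039769, plus strand), had 52, 27 and 25 reads in the SMARTseq4 input of mice 1, 2 and 3, or 2.21, 1.10 and 0.827 CPM, and 0 reads in all 3 at 0.25 ng. Adamts15, a secreted metalloprotease gene, had 30, 14 and 18 reads at 4 ng. Fblim1, whose product binds filamin at cell adhesions, had 9, 28 and 46. These 3 genes had 9 or more reads in each mouse at 4 ng and none from the same RNA at 0.25 ng. Kcnj10, an inwardly rectifying potassium channel gene, had 14, 8 and 1 reads. A gene without a symbol, ENSMUSG00000054178, had 16, 14 and 3, and the processed pseudogene Gm17383 had 1, 1 and 3. Gm17383 stood at 20.99 CPM in TruSeq70 and has few reads at either amount here, and as a pseudogene it can share reads with its parent gene.

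In IP the corresponding genes had a similar number of reads. Rad51c, a gene of homologous recombination (chromosome 11, 87376645 to 87404954, minus strand), had 29, 26 and 37 reads in the SMARTseq4 IP of mice 1, 2 and 3, or 2.01, 1.33 and 2.14 CPM, and 0 reads in all 3 at 0.25 ng. Htr7, a serotonin receptor gene, had 17, 27 and 18 reads at 4 ng, and Fancb, a gene of the Fanconi anaemia core complex, had 11, 18 and 17. Bhlha15, the gene of a transcription factor of secretory cells, had 4, 17 and 19. Aifm3 had 12, 7 and 4. Orm2, an acute-phase gene of hepatocytes, had 4, 8 and 56. The counts of Orm2 and Bhlha15 were uneven among mice also at 4 ng, whereas those of Rad51c, Htr7 and Fancb were not.

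A gene lost in one fraction was not always lost in the other. Rpusd2 had 0.859, 0.399 and 0.340 CPM in the SMARTseq0.25 IP of mice 1, 2 and 3 and 0.278, 1.48 and 1.74 CPM in the SMARTseq4 IP. Rad51c had 0, 0.493 and 0.0436 CPM in the SMARTseq0.25 input and 0.721, 0.691 and 1.46 CPM in the SMARTseq4 input. Each gene was thus read at 0.25 ng in the fraction where it had not been lost, and the groups overlapped for Rpusd2 in IP.

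The reverse loss concerned fewer genes and mostly fewer reads. In input Rapsn, which clusters acetylcholine receptors at the synapse, had 13, 28 and 25 reads at 0.25 ng and none at 4 ng, and the kinase gene Wnk2 had 19, 2 and 28. The other 4 of the 6 named genes, Gm8314, Gm5995, Gm43124 and Gm15247, had 1 to 3 reads per library. In IP the cadherin gene Cdh3 had 1, 9 and 16 reads at 0.25 ng and none at 4 ng. The other 5, Gtpbp4-ps2, Gm7565, Dmp1, Gm14428 and Gm6059, had 1 to 5 reads. Of these 12 genes, 7 are pseudogenes, whose reads can belong to a near-identical copy.

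**Figure D2:**
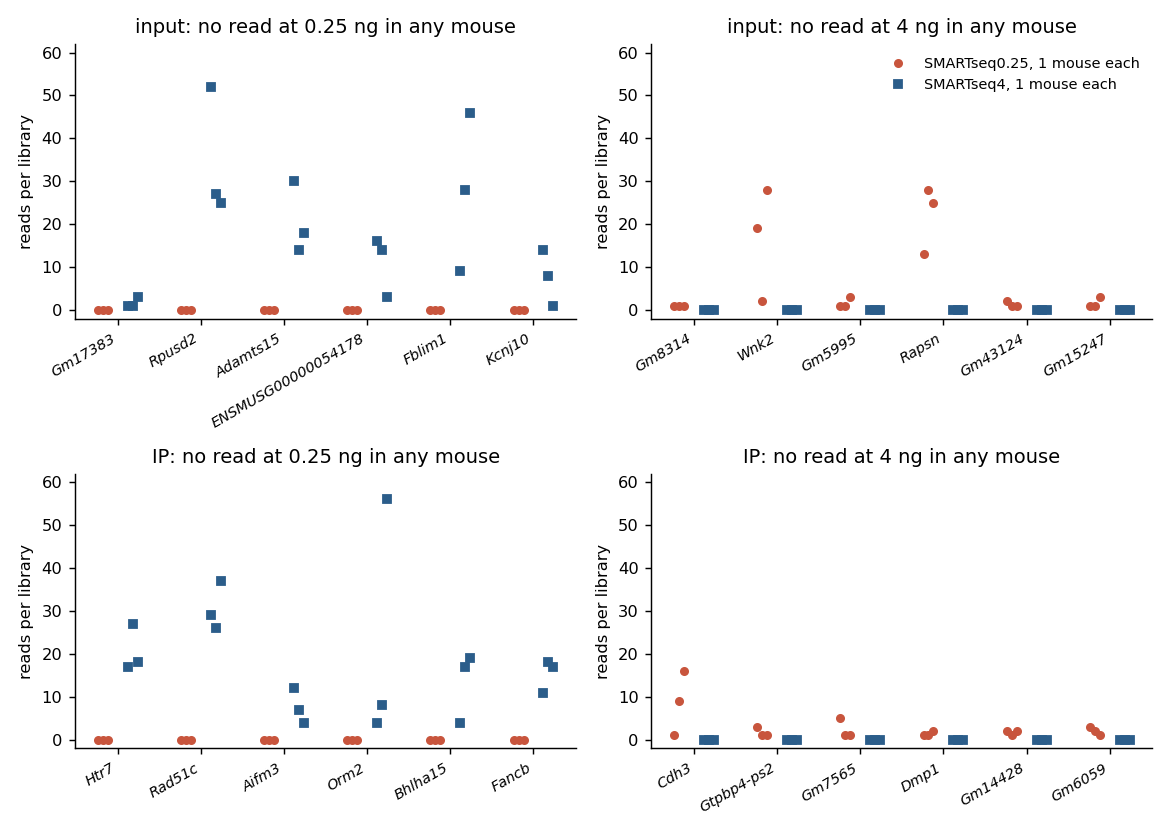
Reads per library (vertical axis) of the named genes that had no read in any mouse at 0.25 ng (left) or at 4 ng (right), for input (top) and IP (bottom), with 1 point per mouse, SMARTseq0.25 as circles and SMARTseq4 as squares. On the left Rpusd2 reaches 52 reads, Rad51c 37 and Orm2 56 at 4 ng beside 0 at 0.25 ng, and on the right Rapsn and Wnk2 reach 28 reads at 0.25 ng.

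How many reads a gene can have at 4 ng and still be lost was read from pairs of libraries of the same mouse. Of the genes with exactly 1 read in the SMARTseq4 input, 74.5% ± 3.15 (SD, n = 3 pairs) had 0 reads at 0.25 ng. The share fell to 28.2% ± 7.02 at 10 to 19 reads, 11.2% ± 4.82 at 20 to 49 reads, 2.62% ± 2.02 at 50 to 99 reads and 0.286% ± 0.301 from 100 up to 200 reads. No gene with 200 or more reads at 4 ng was at 0 at 0.25 ng in input. In IP the share at 20 to 49 reads was 14.6% ± 6.29 and from 100 up to 200 reads 0.324% ± 0.315. Read the other way, 2.57% ± 0.198 of the genes with 20 to 49 reads in the SMARTseq0.25 input and 2.76% ± 0.663 in the SMARTseq0.25 IP had 0 reads at 4 ng in the same mouse.

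The same count was made between mice at one amount. Of genes with 20 to 49 reads in one SMARTseq4 input library, 0.430% ± 0.243 had 0 reads in the SMARTseq4 library of another mouse (6 ordered pairs, which share libraries). Between SMARTseq0.25 input libraries of different mice this share was 14.9% ± 2.72. In IP the values were 0.544% ± 0.324 and 18.4% ± 2.54. For genes with 20 to 49 reads the shares thus stood lowest between mice at 4 ng, higher from 4 ng to 0.25 ng of one mouse and highest between mice at 0.25 ng, although the last 2 overlap within their SD.

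The genes named next had the most reads at 4 ng in their mouse among those at 0 in that mouse at 0.25 ng. They cover each mouse in input and mice 2 and 3 in IP. In mouse 1 of IP the gene had 80 reads at 4 ng, and it was at 0 at 0.25 ng also in mouse 3. The named genes were chosen after their values were seen. In input they were Heyl, a target gene of Notch signalling, with 190 reads at 4 ng and 0 at 0.25 ng in mouse 3, Ift80, a gene of intraflagellar transport, with 159 and 0 in mouse 1, and Evi5l with 6.05 and 0 CPM in mouse 2. In the other mice these genes were detected at 0.25 ng, with 89 and 18 reads for Heyl, 126 and 69 for Ift80 and 57 and 30 for Evi5l. In IP they were Trip13, an ATPase gene of the spindle checkpoint, with 206 and 0 reads in mouse 3, and Mfsd6, a transporter family gene, with 164 and 0 in mouse 2. At 0.25 ng Trip13 had 112 and 57 reads in mice 1 and 2 and Mfsd6 had 214 and 176 in mice 1 and 3. These genes were thus lost from 1 library and read in the others of the same amount. In the reverse direction no gene with more than 88 reads at 0.25 ng in input (Ano5, mouse 3) or 86 in IP (Klhl38, mouse 3) was at 0 at 4 ng in the same mouse.

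Dropout was then measured in classes of genes that were set by the mean CPM of the TruSeq70 libraries of the same fraction, which no SMART-Seq v4 library enters. All shares are at equal depth. In input, of the 2087 genes at 0.3 to 1 CPM, 37.9% ± 3.26 had 0 reads at 0.25 ng and 16.4% ± 1.18 at 4 ng (SD, n = 3), a difference of 21.5 ± 4.02 percentage points. Of the 2032 genes at 1 to 3 CPM, 11.9% ± 2.61 and 2.34% ± 0.240 had 0 reads, a difference of 9.54 ± 2.37. Of the 3093 genes at 3 to 10 CPM, 1.79% ± 0.684 and 0.327% ± 0.0966 did, a difference of 1.46 ± 0.708. At 0.1 to 0.3 CPM the shares were 61.2% and 39.2%. The excess of zeros at 0.25 ng was thus large near the limit of detection and small above 3 CPM. With classes set by SMARTseq4 in the other 2 mice the excess at 3 to 10 CPM was 0.499 points.

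In IP the excess was 27.6 ± 2.92 points at 0.3 to 1 CPM (45.9% against 18.3%), 16.5 ± 3.10 at 1 to 3 CPM (20.1% against 3.62%) and 2.68 ± 0.534 at 3 to 10 CPM (3.36% against 0.677%). At 3 to 10 CPM it was 1.39 points with classes set by SMARTseq4 in the other 2 mice. The difference between fractions was not tested, and the classes of the 2 fractions hold different genes. In both fractions the groups did not overlap from the lowest class up to 10 to 30 CPM, where the shares were 0.222% and 0.140% in input and 0.280% and 0.103% in IP. Each of these differences had p = 0.1 in the exact permutation test and 0.129 after Benjamini-Hochberg adjustment over the 9 classes of both fractions. Above 30 CPM the groups overlapped, and above 100 CPM no gene was at 0 reads in any library at its own depth (1335 genes in input and 1600 in IP).

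**Figure D3:**
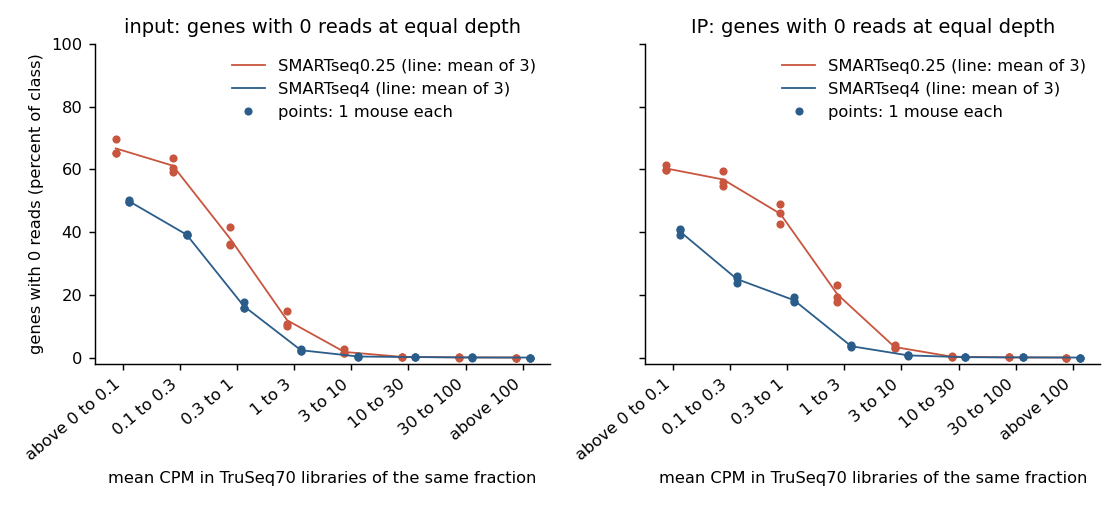
Share of genes with 0 reads (percent of the class, at equal depth) in classes of TruSeq70 abundance (mean CPM of the same fraction), for input and IP, with 1 point per mouse and a line through the mean of 3. The SMARTseq0.25 points lie above the SMARTseq4 points in every class up to 3 to 10 CPM, with 11.9% against 2.34% at 1 to 3 CPM in input and 20.1% against 3.62% in IP.

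The mean level of a class was alike at the 2 amounts. For genes at 1 to 3 CPM in TruSeq70 the mean over genes was 2.24 ± 0.0412 CPM at 0.25 ng and 2.23 ± 0.0681 at 4 ng in input (SD over 3 libraries), and 2.66 ± 0.255 and 2.67 ± 0.253 in IP. The median over the genes of this class was lower at 0.25 ng, at 1.49 against 1.66 CPM in input and 1.33 against 1.67 CPM in IP. At 0.3 to 1 CPM it was 0.224 against 0.395 CPM in input and 0.113 against 0.423 CPM in IP. By contrast, the genes that were detected stood higher. In the class at 0.1 to 0.3 CPM the median of the genes with reads was 0.338 CPM at 0.25 ng and 0.205 CPM at 4 ng in input, and 0.707 and 0.370 CPM in IP. Values of 0 reads and high values were both more frequent at 0.25 ng in the class at 1 to 3 CPM, where 26.3% ± 1.13 of genes reached 3 CPM at 0.25 ng and 23.4% ± 0.271 at 4 ng in input. In IP these shares were 29.9% ± 1.94 and 29.0% ± 4.32, which differ by less than their spread.

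The spread over the 3 mice was larger at 0.25 ng, although the mice were the same. For genes at 1 to 3 CPM the median coefficient of variation (CV, the SD over the mean) was 0.572 at 0.25 ng and 0.283 at 4 ng in input, a ratio of 2.02, where counting alone would give 0.161 and 0.151. At 10 to 30 CPM it was 0.224 and 0.139, a ratio of 1.61. Above 100 CPM it was 0.131 and 0.126, a ratio of 1.04. The share of genes with the larger CV at 0.25 ng was 79.9% at 1 to 3 CPM and 52.1% above 100 CPM.

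In IP the median CV was 0.833 and 0.379 at 1 to 3 CPM (ratio 2.20), 0.323 and 0.194 at 10 to 30 CPM (1.67) and 0.205 and 0.173 above 100 CPM (1.19). Without mouse 1, whose IP libraries stood apart, the ratios were 2.65, 1.998 and 1.29. The common biological coefficient of variation that edgeR estimated within each group was 0.503 at 0.25 ng and 0.232 at 4 ng in input, and 0.577 and 0.269 in IP. These are descriptions, with no test, since the CVs of genes of one set of libraries are not independent.

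**Figure D4:**
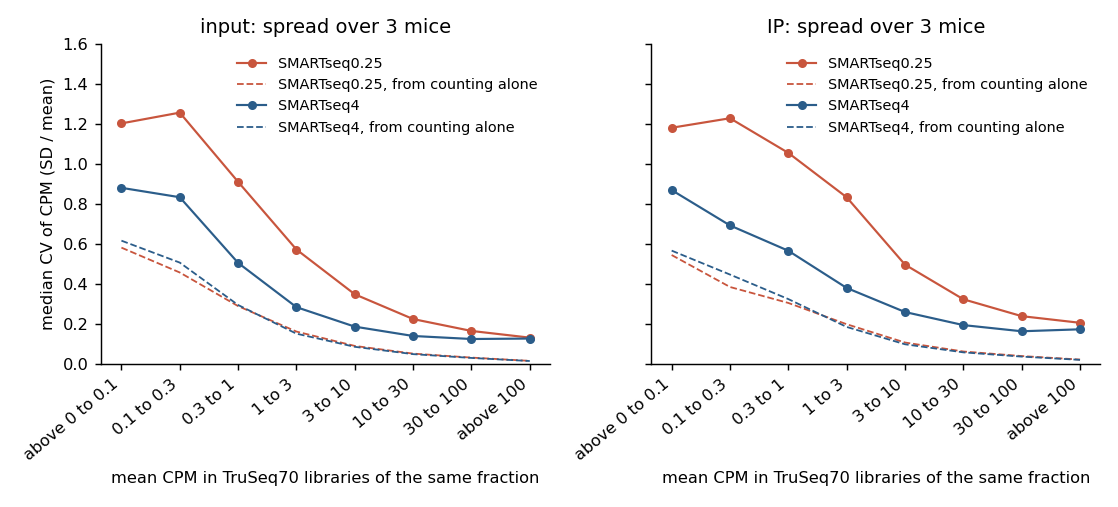
Median over genes of the CV of CPM over 3 mice (vertical axis) in classes of TruSeq70 abundance (mean CPM), with points and solid lines for each amount and dashed lines for the CV that counting alone would give. The SMARTseq0.25 line lies above the SMARTseq4 line, by 2.02 times at 1 to 3 CPM in input and 2.20 times in IP, and the lines approach each other above 100 CPM.

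Libraries of one mouse show the spread without any difference between mice. In input 21.2% ± 2.57 (SD, n = 3 pairs) of genes at 1 to 3 CPM differed by more than 2-fold between 0.25 ng and 4 ng of the same RNA, on the scale of CPM with 0.5 added and relative to the median ratio of the class. At 10 to 30 CPM 3.84% ± 1.13 did, and above 100 CPM 0.0749% ± 0.0749. In IP the shares were 31.3% ± 3.55, 6.88% ± 2.07 and 0.0208% ± 0.0361. The median size of the log2 ratio between mice at 1 to 3 CPM was 0.62 at 0.25 ng and 0.33 at 4 ng in input, and 0.46 between the amounts of one mouse. In IP these medians were 0.79, 0.41 and 0.65.

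No gene passed the edgeR quasi-likelihood test at a Benjamini-Hochberg adjusted p under 0.05 in either fraction. The background of calls was 0% of 14108 genes tested in input and 0% of 14655 in IP. At an unadjusted p under 0.05 there were 350 genes in input (2.48%), 108 higher (0.766%) and 242 lower (1.72%) at 0.25 ng, and 249 in IP (1.7%), 95 higher (0.648%) and 154 lower (1.05%). With the mouse as a replicate block edgeR also called 0 genes, with 697 and 609 at the unadjusted threshold, and the pairing left a median standard error above 100 CPM of 0.06 in input and 0.09 in IP. DESeq2, an alternative count model, called 3 genes in input (0.0128% of 23391) and 6 in IP (0.0246% of 24402). Genes whose 3 values at 0.25 ng all lay below the 3 at 4 ng numbered 727 of the genes tested in input (5.15%), and 398 (2.82%) lay above. In IP 638 (4.35%) lay below and 341 (2.33%) above.

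The fitted changes were small where the test was sharp. In input the median size of the log2 fold change was 0.05 above 100 CPM, with a median standard error of 0.15 and a median half-width of the 95% interval of 0.36. At 1 to 3 CPM the median size was 0.35, the standard error 0.61 and the half-width 1.43. In IP the half-widths were 0.51 and 1.90. Input counts of 13999 genes were simulated with the depths of these libraries, the same spread at both amounts and no mouse block. The genes set to change were drawn only from genes well expressed at 4 ng. Of these edgeR recovered 66% of genes set 2-fold lower and 100% of genes set 4-fold lower. For simulated IP counts of 14646 genes the shares were 22% and 94%. Recovery of changes in genes of low abundance was not simulated. The p-values rest on the spread between the libraries of 3 mice, which holds differences between mice and between library preparations. Without the block they do not use the pairing by mouse.

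The 9 genes called by DESeq2 are named although edgeR did not call them, and they were chosen after their values were seen. In input they were Rpusd2 and Myo1f, both lower at 0.25 ng, and the processed pseudogene Gm13545, which had 2.69, 2.01 and 1.83 CPM at 0.25 ng and 0, 0 and 0.0331 CPM at 4 ng. In IP they were Rad51c, Mapk12, Tfcp2l1, Zfp1, 2900005J15Rik and Gm37558, all lower at 0.25 ng. Mapk12, which encodes a p38 kinase, had 0 reads in all 3 SMARTseq0.25 IP libraries and 1.32, 2.61 and 1.74 CPM in SMARTseq4. Its input groups overlapped, at 2.23, 1.23 and 2.79 CPM against 2.29, 1.46 and 1.95 CPM. The transcription factor gene Tfcp2l1 had 0.859, 0.665 and 1.63 CPM in the SMARTseq0.25 IP and 5.07, 8.89 and 6.95 CPM in the SMARTseq4 IP. Zfp1, a zinc finger gene, had 1.15, 0.797 and 0.476 CPM against 5.69, 8.33 and 5.04 CPM. Both were detected in every IP library at 0.25 ng and did not overlap with 4 ng.

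Some better expressed genes also lay apart without passing the adjusted test, and they too were chosen after their values were seen. Arnt, the partner of the aryl hydrocarbon receptor and of hypoxia-inducible factors, had 8.19, 8.99 and 9.24 CPM in the SMARTseq0.25 input and 16.5, 15.1 and 18.9 CPM in the SMARTseq4 input, a log2 fold change of -0.92 ± 0.18 (SE). In IP its values overlapped, at 27.1, 22.1 and 22.9 CPM against 20.3, 25.6 and 29.6 CPM. Zw10, whose product acts at the kinetochore, had 7.52, 5.18 and 5.66 CPM against 14.4, 14.5 and 11.8 CPM in input (log2 -1.14 ± 0.23). In IP Zw10 had 6.30, 4.39 and 17.2 CPM against 7.15, 10.7 and 11.5 CPM. For both genes the input groups lay apart and the IP groups overlapped. In IP Zfand2a, a zinc finger gene, had 22.5, 20.8 and 29.1 CPM at 0.25 ng and 8.95, 10.7 and 13.96 CPM at 4 ng (log2 1.14 ± 0.26). Adck1, a mitochondrial kinase-like gene, had 7.16, 8.77 and 6.47 against 14.4, 18.03 and 21.1 CPM in IP (log2 -1.22 ± 0.29). The input groups of Zfand2a and Adck1 overlapped. These genes were picked because they lay apart. Of all genes tested, 5.15% lay wholly below and 2.82% wholly above 4 ng in input, and 4.35% and 2.33% in IP.

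Transcript length was set by the longest annotated transcript of each gene. Among genes at 0.3 to 3 CPM in the TruSeq70 input, the excess of zeros at 0.25 ng was larger for longer transcripts, from 4.44 ± 0.876 points in genes of up to 0.5 kb and 7.14 ± 1.94 at 0.5 to 1 kb to 18.2 ± 3.74 at 2 to 4 kb and 22.01 ± 3.20 at 4 to 10 kb (SD over 3 mice). The 71 genes above 10 kb had 22.9 ± 8.14. In IP the excess was 13.03 ± 3.94, 16.2 ± 2.96, 24.6 ± 3.49 and 24.8 ± 4.20 in the same 4 classes and 16.3 ± 6.58 in the 57 genes above 10 kb. In each of these classes the groups did not overlap, with p = 0.1 in the exact permutation test. The difference between genes of 4 to 10 kb and of 0.5 to 1 kb was 14.9 ± 2.51 points in input and 8.599 ± 4.92 in IP. In IP it was 11.4 points without mouse 1.

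This order rests on the scale of abundance. A fragmented long transcript gives more reads per molecule than a short one, and when genes were classed by TruSeq70 CPM per kb of transcript, a choice added after the data were examined, the order was reversed. Among genes at 0.3 to 3 CPM per kb the excess in input was 5.63 ± 3.37, 8.70 ± 2.11, 7.07 ± 2.41, 6.37 ± 1.97, 3.17 ± 0.797 and 0.779 ± 0.795 points from the shortest to the longest class, and in IP 17.4 ± 2.09, 18.04 ± 3.29, 19.4 ± 3.08, 10.9 ± 1.47, 3.99 ± 1.15 and 0.818 ± 0.355. In these per-kb classes the median TruSeq70 level rose with length. It went from 0.248 CPM up to 0.5 kb to 13.8 CPM above 10 kb in input, and from 0.396 to 14.5 CPM in IP. The part of this rise in the order was not tested. The difference of long minus short genes on the per-kb scale was -5.54 ± 1.33 points in input and -14.0 ± 3.65 in IP. For protein-coding genes at 1 CPM or more it was 2.19 ± 0.658 in input and -0.33 ± 1.01 in IP. No effect of length on dropout thus held under all of these scales. The ratio of the median CV at 0.25 ng to that at 4 ng, a description with no test, was smallest for the shortest transcripts on both scales. By CPM it was 1.09 up to 0.5 kb, 1.43 at 0.5 to 1 kb, 2.23 at 2 to 4 kb and 2.09 at 4 to 10 kb in input, and 1.22, 1.81, 2.24 and 2.34 in IP. By CPM per kb it was 1.28, 1.35, 2.06 and 2.09 in input and 1.27, 1.75, 2.08 and 2.16 in IP. Above 10 kb it was 1.75 to 2.01 over both scales and fractions.

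**Figure D5:**
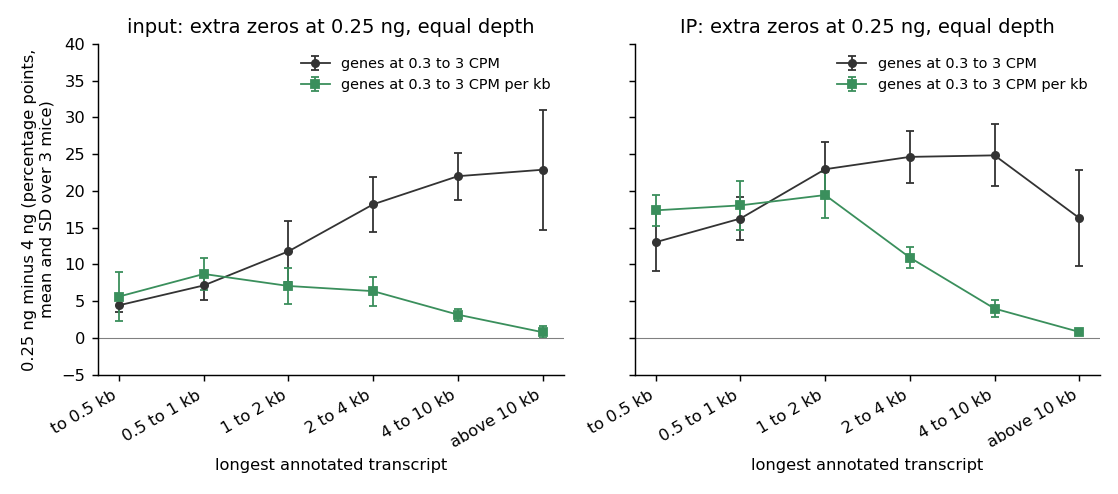
Excess of genes with 0 reads at 0.25 ng over 4 ng (percentage points at equal depth, mean and SD over 3 mice) by length of the longest annotated transcript, for genes at 0.3 to 3 TruSeq70 CPM and for genes at 0.3 to 3 CPM per kb. By CPM the excess in input is 7.14 points at 0.5 to 1 kb and 22.01 points at 4 to 10 kb, and by CPM per kb it is 8.70 and 3.17 points.

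The level of well expressed genes differed little with length. Among genes at 10 CPM or more the median log2 ratio of 0.25 ng to 4 ng in input was 0.05 ± 0.03 at 0.5 to 1 kb, 0.01 ± 0.02 at 1 to 2 kb, -0.03 ± 0.0096 at 2 to 4 kb and -0.06 ± 0.06 at 4 to 10 kb (SD over 3 mice). The difference between 4 to 10 kb and 0.5 to 1 kb was -0.11 ± 0.08 in input and -0.02 ± 0.02 in IP. In input it was -0.06 without mouse 1. Genes of cytosolic ribosomal proteins, which are short and abundant, had a median log2 fold change of 0.11 in input, with 58 of 78 above 0, and of 0.06 in IP, with 54 of 78 above 0, beside medians of -0.0019 and 0.0078 over all genes tested. None of the 78 passed the test.

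Zeros were also counted by the GC content of the gene, a division that was added after the data were examined. Among protein-coding genes at 0.3 to 3 TruSeq70 CPM the excess at 0.25 ng in input was 13.4 ± 2.25 points below 40% GC and 21.9 ± 5.75 at 55 to 60% GC. In IP it was 15.7 ± 6.47 and 31.1 ± 4.20. At 4 ng the share of zeros in the same classes was 1.54% ± 0.488 and 10.2% ± 0.116 in input, and 4.27% ± 2.63 and 10.3% ± 1.72 in IP. The part of transcript length in this order was not tested.

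Origin was first set by the TruSeq70 libraries, in which genes were called higher in IP, lower in IP or neither by edgeR. For genes at 0.3 to 3 CPM in the TruSeq70 input the excess of zeros in input was 15.7 ± 3.75 points in the 595 genes higher in IP, 18.8 ± 7.22 in the 114 genes lower in IP and 13.8 ± 2.50 in the 2680 others. These values differ by less than their spread over mice. In IP the excess was 17.2 ± 5.60 points in 81 genes higher in IP and 18.4 ± 2.84 in the 2344 others. In the 90 genes lower in IP it was 1.40 ± 0.708, with overlapping groups at 0.25 ng and 4 ng (exact permutation test, 2-sided, p = 0.4). The same TruSeq70 libraries set both the origin and the abundance class. A gene could also pass the edgeR filter on low counts through the fraction where it was higher. The part of this selection was not tested, nor was the difference between these classes. Their median level in TruSeq70 was 1.97, 1.34 and 1.83 CPM in the order higher, neither and lower.

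The levels of these classes were centred near 0. The median log2 fold change of genes higher in IP was 9.7e-05 in input (2353 genes tested) and 0.01 in IP (2642), and that of genes lower in IP was -0.0095 (2410) and 0.0095 (2360). All 4 medians are within 0.05 of 0 under each setting that was tried, and their sign changed with the setting for 3 of the 4.

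Lists of marker genes give the same comparison by cell type. In bulk libraries fewer cells of a type and less RNA per cell cannot be told apart. No member of any of the 15 lists passed the edgeR test in either fraction, beside 0% of all genes. Over all genes and 3 libraries, 65.3% of values were 0 reads in the SMARTseq0.25 input and 59.5% in the SMARTseq4 input, and 64.9% and 57.5% in IP. The lists hold mostly expressed genes and start from lower shares.

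Hepatocyte markers were measured alike at both amounts. All 20 had reads in all 12 libraries. Their summed level was 140880 ± 7889 CPM at 0.25 ng and 140150 ± 7522 CPM at 4 ng in input, and 31861 ± 689 and 31667 ± 1064 CPM in IP. The gene of albumin, Alb, had 47748, 49303 and 47789 CPM in the SMARTseq0.25 input of mice 1, 2 and 3 and 47849, 51573 and 48540 CPM in SMARTseq4. The median log2 fold change of the list was -0.0092 in input and 0.0025 in IP, and the median CV was 0.127 and 0.149 at 0.25 ng and 4 ng in input.

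Kupffer cell markers, 15 genes, also had reads in every library. In input, where they are less abundant, they summed to 754 ± 44.1 CPM at 0.25 ng and 734 ± 70.6 CPM at 4 ng. In IP they summed to 23241 ± 7354 and 23407 ± 7631 CPM, with the lowest value in mouse 1 at both amounts. Clec4f, a lectin gene specific to Kupffer cells, had 3281, 7052 and 5386 CPM in the SMARTseq0.25 IP and 3292, 7190.1 and 5212 CPM in SMARTseq4. In input it had 152, 152 and 125 against 148.5, 150.2 and 119 CPM. Cd163, the gene of the haemoglobin scavenger receptor, had 9.15, 9.45 and 6.06 CPM in the SMARTseq0.25 input and 5.39, 4.14 and 5.13 CPM in SMARTseq4, a log2 fold change of 0.76 ± 0.27 (SE) that did not pass the adjusted test. The median log2 fold change of the list was 0.05 in input and 0.01 in IP, and it was 0.0994 in input without mouse 2, 5.2e-05 in IP without mouse 3 and -0.0124 in IP with library totals in place of TMM.

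Markers of endothelial cells (15 genes) had no zeros in either fraction, and those of stellate cells (14) had 1 zero among 42 values, Des in the SMARTseq0.25 IP of mouse 3. Cholangiocyte markers (8) are depleted in IP, and there 8 of 24 values (33.3%) were at 0 at 0.25 ng and 1 (4.17%) at 4 ng. The biliary keratin gene Krt19 had 0.286, 0 and 0 CPM in the SMARTseq0.25 IP and 0.139, 0.460 and 0.695 CPM in SMARTseq4, and Krt7 had 0.143, 0 and 0 against 0.208, 0.460 and 0.290 CPM. Pkhd1, which encodes fibrocystin, had 2.22, 0 and 8.98 CPM against 3.12, 3.17 and 2.49 CPM. Values near 0.2 CPM are at the floor of 3 reads in IP.

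Lymphocyte markers were at 0 reads more often at 0.25 ng in input, where they are rare, and not in IP. Of 45 values of the 15 T and NK cell markers in input, 15 (33.3%) were at 0 reads at 0.25 ng and 2 (4.44%) at 4 ng, and in IP none was at 0 at either amount. The median TruSeq70 level of the list in input was 0.396 CPM. Over all genes at 0.3 to 1 CPM, at the same depths, 35.4% and 11.9% of values were 0 reads. Zeros were thus about as frequent in the list as in that class at 0.25 ng, and less frequent at 4 ng. Cd8a, a co-receptor gene of cytotoxic T cells, had 0 reads in all 3 SMARTseq0.25 input libraries and 0.424, 0.162 and 0.596 CPM in SMARTseq4, and Cd5 had 0 reads in all 3 against 0, 0.0812 and 0.132 CPM. Lck, the kinase of the T cell receptor, had 4.87, 0.657 and 2.004 CPM at 0.25 ng and 1.23, 0.691 and 1.39 CPM at 4 ng. The sums of the list overlapped, 11.7 ± 3.70 CPM (7.43 to 14.3) at 0.25 ng and 9.61 ± 1.90 CPM (7.88 to 11.6) at 4 ng. In IP the sum was 495 ± 130.4 and 485 ± 149.2 CPM. The median CV of the list in input was 1.12 at 0.25 ng and 0.539 at 4 ng.

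For the 8 B cell markers in input, 6 of 24 values (25%) were at 0 reads at 0.25 ng and 1 (4.17%) at 4 ng, and none in IP. The difference was 20.8 ± 14.4 points (SD over mice) and 12.5 points without mouse 3, and the median TruSeq70 level of the list was 0.777 CPM. Ms4a1, the gene of CD20, had 0, 1.89 and 2.31 CPM at 0.25 ng and 1.06, 0.691 and 0.132 CPM at 4 ng in input. The sum of the list was 12.2 ± 3.58 CPM at 0.25 ng and 10.1 ± 1.37 CPM at 4 ng.

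The other blood cell lists showed smaller differences. In input 9 of 33 values of neutrophil and monocyte markers were at 0 reads at 0.25 ng and 5 at 4 ng, 4 and 2 of 30 for erythroid markers and 7 and 6 of 21 for megakaryocyte markers. Haemoglobin genes lead the erythroid list, and Hbb-bs had 102290, 83480 and 72700 CPM in the SMARTseq0.25 IP and 103210, 76869 and 69934 CPM in SMARTseq4. Nkg7, a granule gene of NK and cytotoxic T cells, had 2.27, 1.03 and 2.18 CPM at 0.25 ng and 2.42, 1.503 and 2.35 CPM at 4 ng in input. Gp1bb, a platelet glycoprotein gene, had 0.126, 0.329 and 0.174 CPM at 0.25 ng and 0 at 4 ng in input, and 0.859, 5.18 and 3.74 against 4.86, 5.52 and 5.79 CPM in IP. Replication-dependent histone genes, most of whose mRNAs end without a poly(A) tail, had 59.5% and 42.6% of values at 0 reads in input and 53.3% and 29.2% in IP (65 genes).

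The enrichment by IP was compared within each amount. IP against input called 5280 of 14300 genes at 0.25 ng (36.9%) and 8928 of 15091 at 4 ng (59.2%) with edgeR. At 0.25 ng 2831 genes (19.8%) were higher and 2449 (17.1%) lower in IP, and at 4 ng 4594 (30.4%) and 4334 (28.7%). The 5103 genes called at both amounts, which are 96.6% of the calls at 0.25 ng and 57.2% of those at 4 ng, had the same direction at both. Of the genes called at 4 ng, 92.1% of those above 100 CPM in the TruSeq70 input were called at 0.25 ng, 70.2% at 30 to 100 CPM and 42.4% at 1 to 3 CPM.

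The size of the enrichment was alike for hepatocyte and Kupffer cell markers and differed more for some other lists. The median log2 ratio of IP to input was -2.44 at both amounts for hepatocyte markers, with 19 of 20 called at each. It was 4.74 at 0.25 ng and 4.73 at 4 ng for Kupffer cell markers, with all 15 called at both. T and NK cell markers had 5.23 and 5.08, with 13 and 14 of 14 called, and B cell markers 4.58 and 4.80, with 8 of 8 called at both. The difference between the amounts was also fitted gene by gene. Its median was 0.04 for hepatocyte, 0.02 for Kupffer cell, -0.15 for T and NK cell and -0.55 for B cell markers. For cholangiocyte markers it was 0.63. For lists with smaller ratios fewer members were called at 0.25 ng, 8 against 13 of 15 endothelial markers (median -0.47 and -0.55) and 6 against 11 of 14 stellate cell markers (-1.08 and -1.32). Cholangiocyte markers had -0.76 and -1.51 (2 and 4 of 6 called), neutrophil and monocyte markers 5.29 and 4.88 (9 of 9 at both), erythroid markers 4.85 and 5.14 (8 and 10 of 10) and megakaryocyte markers 3.40 and 4.24 (4 and 5 of 5). Replication-dependent histone genes had 2.02 and 1.32 (8 and 10 of 16). Differences of these medians between the amounts were not tested.

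Whether the ratio of IP to input differed between the amounts was tested for 15976 genes as an interaction in edgeR. A single gene (0.00626%) passed, Myo1f, which encodes a class I myosin of leukocytes, with a difference of 5.60 ± 0.68 (log2, SE) and an adjusted p of 0.0311. At an unadjusted p under 0.05 there were 721 of these 15976 genes. DESeq2 called 83 of 26315 genes tested, a larger set, and gave no adjusted p for 7334 genes. Myo1f had 3, 0 and 0 reads in the SMARTseq0.25 input, or 0.126, 0 and 0 CPM, and 50, 41 and 55 reads in the SMARTseq4 input, or 2.12, 1.67 and 1.82 CPM. In IP it had 46.0, 71.5 and 56.0 CPM at 0.25 ng and 38.2, 62.8 and 46.7 CPM at 4 ng, with overlapping groups. The amounts thus lay apart in the input, and a fitted ratio against values near 0 reads depends on the prior count. The log2 ratio of IP to input was 9.76 at 0.25 ng, 4.16 at 4 ng and 4.47 in TruSeq70. The edgeR call was lost with the mouse as a replicate block (0 genes called, 768 at the unadjusted threshold, smallest adjusted p of 0.0804 by edgeR), with library totals in place of TMM (0 called, 671 unadjusted, 0.0552 by edgeR) and without any 1 of the 3 mice (0 called, 632 to 845 unadjusted, 0.361 to 0.782 by edgeR).

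Other genes also had near 0 reads in the SMARTseq0.25 input. They are among the 8 genes that edgeR called, all with the higher ratio at 0.25 ng, when no filter on low counts was used, and they were chosen after their values were seen. Ripor2 had 0.0840, 0 and 0 CPM at 0.25 ng and 1.49, 0.731 and 1.46 CPM at 4 ng in input. Cyfip2, of the WAVE actin-regulating complex, had 0.0420, 0 and 0.0436 against 0.509, 1.46 and 0.430 CPM. Myo1g had 0, 0.164 and 0 against 0.976, 1.06 and 0.761 CPM. H2-Ob, a chain of the MHC class II modifier of B cells, had 0 reads in all 3 against 0.0424, 0.366 and 0.993 CPM. In IP Cyfip2 had 26.8, 26.6 and 39.3 CPM at 0.25 ng and 20.8, 20.4 and 23.3 CPM at 4 ng, which do not overlap. Ripor2 had 19.2, 17.9 and 25.7 against 12.2, 19.6 and 17.2 CPM in IP. Myo1g had 39.7, 45.2 and 36.8 against 25.1, 39.99 and 36.03 CPM, and H2-Ob had 37.9, 52.6 and 50.2 against 30.1, 42.6 and 35.2 CPM. In IP Cyfip2, Myo1g and H2-Ob were thus higher at 0.25 ng in all 3 mice, with overlapping groups for Myo1g and H2-Ob.

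The genes of the RiboTag design were given in every sample. Gfi1, whose promoter drives Cre, was rare at both amounts, with 0, 1.13 and 3.34 CPM in the SMARTseq0.25 IP and 0.694, 1.38 and 1.62 CPM in SMARTseq4, and 0 reads in all 3 SMARTseq0.25 input libraries against 0, 0.0812 and 0.132 CPM. Rpl22 had 29.1, 22.9 and 26.1 CPM at 0.25 ng and 25.2, 20.4 and 24.7 CPM at 4 ng in input, and 81.0, 33.2 and 51.1 against 73.0, 31.4 and 34.8 CPM in IP. It was higher at 0.25 ng in all 3 mice of both fractions, by log2 0.17 ± 0.16 and 0.26 ± 0.47 (SE), which did not pass the test. The reference gene Gapdh had 1.01, 31.5 and 37.0 CPM in the SMARTseq0.25 input and 4.45, 1.10 and 4.37 CPM in SMARTseq4, with overlapping groups. In IP it had 0.0716, 10.8 and 13.5 against 0.208, 14.3 and 3.07 CPM. Gapdh has many near-identical pseudogenes, among which its reads can be divided or discarded, so that its values are uncertain.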

How the data were processed

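The counts and RPKM values were deposited by the authors. According to the methods and labels, they trimmed reads with FASTX and Trimmomatic, aligned them with TopHat to GRCm38, counted reads per Ensembl gene over exons and made RPKM tables from the same alignments. SMART-Seq v4 libraries do not keep strand, and strand was not used, so antisense and overlapping genes cannot be told apart. All SMART-Seq v4 libraries were sequenced at one centre.

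Counts of 47729 genes were used in 12 libraries, with 6 TruSeq70 libraries for classes and 0 other columns of samples. Lines that name no gene were left out: reads without a feature were 3.45% to 13.1% of reads, ambiguous reads 5.51% to 8.98% and reads not aligned uniquely 31.5% to 63.3%. Biotype and length came from GENCODE M21 (47310 genes matched, 419 not). Equal depth is the exact expectation of drawing without replacement.

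Groups were compared by fraction with edgeR 4.0.16 (R 4.3.3, TMM, quasi-likelihood test, edgeR's own filter on low counts, Benjamini-Hochberg threshold 0.05), the interaction with all 12 libraries, and single values with exact permutation tests (Python 3.11.15, numpy 2.4.6, pandas 2.3.3, scipy 1.17.1, matplotlib 3.10.9). Scripts were tested on simulated data. Ratios within a mouse used CPM with 0.5 added. Same-numbered libraries are the same mouse's RNA, and their deviations from group means correlated at 0.579 to 0.656 in input and 0.507 to 0.703 in IP, against -0.409 to -0.0978 and -0.516 to -0.0360 across mice. Alternatives were the mouse as a replicate block, DESeq2 1.42.0, other scalings, filters, thresholds and length measures, and each mouse left out.

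The libraries compared, the lists and the tests were chosen with earlier results of these data known. Named genes were to be, per fraction, the 8 largest rises and falls past the threshold at 5 CPM or more (none passed), the 6 most abundant in TruSeq70 lost completely at each amount, up to 5 interaction calls, Gfi1, Rpl22, Gapdh and list members. Exceptions are stated beside them.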

Additional observations from a re-analysis of the deposited data

Results flagged for a closer look

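The ratio of IP to input of Myo1f differed between the amounts by 5.60 on the log2 scale in the edgeR interaction test, as described above. The part of the very low input counts at 0.25 ng in this difference was not tested separately.

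For 9 other genes all 3 mice moved one way in input and the opposite way in IP between 0.25 ng and 4 ng. The difference between fractions was not tested for these genes, and the pattern was looked for among all genes named in the text. Several of the named genes had been chosen for their values in a fraction, so their number does not show how common the pattern is. Its share over all genes was not counted. The log2 ratio of 0.25 ng to 4 ng in IP minus that in input, as a mean over 3 mice with 0.5 added to CPM, was 1.70 for Cyfip2, 1.66 for Myo1g and 1.21 for H2-Ob, which had almost no reads in the SMARTseq0.25 input. It was 0.33 for Nkg7 and 0.0603 for Alb, whose groups overlap in both fractions, and 0.41 for Gm17383, which had at most 3 reads in a library of the input. For Cdh3, which had no read in the SMARTseq4 IP, it was 1.69. For Gm13545 and Gp1bb it was -2.57 and -1.37, and both had reads in the SMARTseq0.25 input and next to none in the SMARTseq4 input.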

How the results depend on the processing

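Of 218 alternative values over 35 results, 3 were reversed and 38 moved beyond the spread or the bounds set for counts, and the causes were not tested. The other 177 stayed within the spread, bounds or direction set for their result, some with another size. A change of sign was not counted as reversed for the median changes by origin, some of which are near 0. For genes higher in IP the median in input was 9.7e-05, and with library totals it was -0.0117, a value counted among the 177. Detection stayed lower at 0.25 ng under every threshold, gene set, paired test and left-out mouse, from -3029 to -115 genes in input and from -3821 to -255 in IP. Between the amounts edgeR called 0 genes in each alternative but the fit of all 12 libraries, which called 2 in input. DESeq2 called 3 in input and 6 in IP. At an unadjusted p under 0.05 the main fit had 350 genes in input and 249 in IP. The edgeR alternatives had 203 to 973 in input and 105 to 972 in IP. The replicate block (pairing by mouse) changed no call between the amounts. It ended the interaction call (0 genes), as did library totals (0) and leaving out any mouse (0 to 0). No filter gave 8 of 26465 genes tested, and DESeq2 gave 83 of 26315. The ratio of spreads in input at 1 to 3 CPM (2.02) was 2.20 for protein-coding genes, 2.54 from edgeR's dispersion and 1.95 to 2.14 without 1 mouse. At 10 to 30 CPM it was 1.55 from the dispersion and 1.61 to 1.70 without 1 mouse, and above 100 CPM 1.02 to 1.12. In IP at 1 to 3 CPM it was 2.68 from the dispersion and 2.18 to 2.65 without 1 mouse, and at 10 to 30 CPM 1.48 to 1.998. The excess of zeros in long over short transcripts was reversed in classes of CPM per kb (-5.54 points in input, -14.0 in IP), and for protein-coding genes at 1 CPM or more it was 2.19 in input and reversed in IP (-0.33). Median log2 changes of the 4 TruSeq70 classes of origin stayed within 0.05 of 0. Genes higher in IP had -0.0448 in input and -0.0082 in IP under the block, -0.0094 in IP with library totals and 0.0044 to 0.0118 in IP without 1 mouse. Genes lower in IP had -0.0219 in input with library totals, and in IP -0.0132 under the block and -0.0141 with library totals.

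Depth limits what 0 reads can show to 0.0993 to 0.215 CPM. The smallest p that a permutation of 3 against 3 libraries gives is 0.1.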
